A study of Mus musculus with 12 samples.

Results

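The response to hydrogen peroxide (H2O2) in serum-free medium was examined in TβRII flox/flox PT cells, the proximal tubule cells that still carry both floxed, undeleted copies of Tgfbr2. The comparison rests on 6 of the 12 libraries of the series, 3 from cells given H2O2 and 3 from untreated cells, chosen by their labelled genotype and medium and described across all genes. Of 25514 genes counted, 12971 had enough counts to be tested. The cells were isolated from male mice that carried the floxed alleles together with the Immorto-mouse transgene, a T antigen that is active at low temperature (labelled genotype H2ts6;Tgfbr2fl/fl), so both groups share this antigen. They were grown at 33 °C with interferon gamma and moved to 37 °C for 5 days before the experiment, at which point interferon gamma was removed. Untreated cells stayed in complete medium, DMEM/F12 that held 2.5% fetal bovine serum as well as transferrin, insulin, selenium, triiodothyronine and hydrocortisone. Treated cells were in serum-free medium with H2O2 for 24 h, and the study's methods also describe serum starvation before H2O2. The dose is 200 mM in the labels, and the methods give it in micromolar, a far lower concentration. The H2O2 and the change of medium therefore cannot be told apart in any value below, and whether the serum-free medium kept the hormones of the complete medium is not given in the sources used here. The TβRII-/- PT cells used for comparison were made from such cells by Cre recombinase delivered with an adenovirus in culture, and each genotype is 1 line. The study's methods say in general that its culture experiments had 3 or more independent repeats, and nothing is said of these libraries in particular, so the p-values measure the spread between the libraries, part of which may be technical.

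The proximal tubule is the segment of the nephron that reabsorbs most of the filtrate, and its cells depend on mitochondria for energy. H2O2 is removed by catalase, peroxiredoxins and glutathione peroxidases, several of which are selenoproteins, and oxidation of Keap1 releases the transcription factor Nrf2, which drives genes of glutathione synthesis and detoxification. Serum supplies cells with lipoprotein cholesterol and growth factors. When sterols are scarce, SREBP2 moves to the nucleus and switches on the genes of cholesterol synthesis and uptake, and hydrocortisone acts through the glucocorticoid receptor, which directly induces genes such as Tsc22d3, Fkbp5 and Per1.

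The genes of these pathways carry short recognised sequences in their promoters, and 1 stretch of 100 bases is shown for each of 6 pathways whose members are described below. Each is the stretch around the motif in the changed member with the lowest p among those that hold it before the start site. Sequences are those of RefSeq on GRCm38.p6, written 5′ to 3′ along the gene's strand, with the motif on either strand in capitals.
Hmgcs1, sterol element TCACCCCAC, chr13:119690168-119690267, plus strand: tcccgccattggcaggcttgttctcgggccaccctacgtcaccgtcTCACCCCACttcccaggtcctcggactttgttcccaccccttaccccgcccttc
Gclm, antioxidant response element TGACNNNGC, chr3:122245377-122245476, plus strand: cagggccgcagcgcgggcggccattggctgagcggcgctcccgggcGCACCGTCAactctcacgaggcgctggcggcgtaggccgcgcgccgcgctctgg
Hspb1, heat shock element GAANNTTC, chr5:135887776-135887875, plus strand: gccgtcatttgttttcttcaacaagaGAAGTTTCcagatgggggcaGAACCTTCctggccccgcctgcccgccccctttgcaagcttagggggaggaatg
Asns, ATF4/CEBP element TGATGNAA, chr6:7693210-7693309, minus strand: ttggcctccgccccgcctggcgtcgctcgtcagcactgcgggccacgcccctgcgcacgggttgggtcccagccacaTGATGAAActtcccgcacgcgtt
Cdk1, CHR element TTTGAA, chr10:69352913-69353012, minus strand: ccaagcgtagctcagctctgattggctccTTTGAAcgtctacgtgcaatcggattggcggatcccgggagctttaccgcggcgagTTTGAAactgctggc
Mcoln1, E-box CACGTG, chr8:3500419-3500518, plus strand: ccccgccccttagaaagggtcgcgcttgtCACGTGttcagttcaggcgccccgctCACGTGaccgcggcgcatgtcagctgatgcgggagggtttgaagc
A match is a description of these letters only, and nothing about the binding of a factor was measured.

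The libraries held between 15870155 and 17808818 counts over the transcripts that stand for each gene. Between 14746 and 15164 genes were detected in each. On the first principal component of the 6 libraries, which held 58.3% of the variance, the 3 treated libraries lay on 1 side and the 3 untreated ones on the other. Untreated replicates 1 and 3 differed from each other more than any other pair of replicates, with a chi-square per gene of 12.1 against 4.90 to 5.31 among treated replicates. Markers of the labelled cell type were mixed. Lrp2 (megalin), Aqp1, Cdh16 and Pax8 each had at least 3675 counts in every library, whereas Hnf4a and Slc34a1, which define the mature proximal tubule, had at most 1 count. Of 6 markers of other nephron segments, 5 had at most 3 counts in every library, as did 5 of 9 endothelial, 5 of 9 fibroblast, 5 of 10 immune and 2 of 6 podocyte markers. The exceptions above a trace were Kdr (115 to 126 counts untreated and 19 to 22 with H2O2), Csf1r (713 to 912), Cd68 (118 to 141), Synpo, Wt1, Podxl, Col1a1 and Scnn1a, while Ptprc, Adgre1, Cd3e, Nphs1, Lum and Thy1 had between 0 and 5 counts. In bulk samples, fewer cells of a type and less RNA per cell cannot be told apart.

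Tgfbr2, the targeted gene, was expressed throughout. Its normalised counts (counts scaled to a common library size) were 9248, 8369 and 7562 in the untreated libraries and 13275, 13918 and 13706 with H2O2. All treated libraries were above all untreated ones, a log2 fold change of 0.70 ± 0.07 (SE, n = 3 and 3, edgeR adjusted p = 3.4e-10).

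With H2O2, 2729 genes rose and 2663 fell, that is 21.0% and 20.5% of the genes tested, by edgeR's quasi-likelihood test at a Benjamini-Hochberg adjusted p under 0.05. Most changes were small, with a median size of 0.34 on the log2 scale. Changes of at least 1.5-fold were more often rises (737 genes, 5.68%) than falls (332 genes, 2.56%). Changes of at least 2-fold comprised 286 rises and 132 falls. The treated libraries lay entirely above the untreated ones for 24.1% of genes and entirely below them for 23.3%. With an unadjusted p under 0.01 and 1.5-fold, limits that the study used for another comparison, applied to the present edgeR values, 665 genes rose and 316 fell.

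Direction varied with transcript length and level. Genes were put into 5 equal bins. In the bin with the shortest transcripts (105 to 2027 bases) 12.7% rose and 25.5% fell, and in the bin with the longest (5647 bases and over) 28.4% rose and 15.3% fell, while the medians moved from -0.07 to 0.06 on the log2 scale. Among genes in the lowest bin of normalised counts the median log2 fold change was 0.21, against values between -0.04 and 0.03 in the other bins. The part of length and level in the gene groups below was not tested. The median length was 3512 bases over all genes tested, and it is given below for the ribosome, proteasome and collagen lists only. Other lists lay far from it too. Among them were complex I (1079 bases), the mtDNA-encoded genes (1144), complexes II to V (1481.5), tubular injury (2050) and the integrins (5044).

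**Figure D1:**
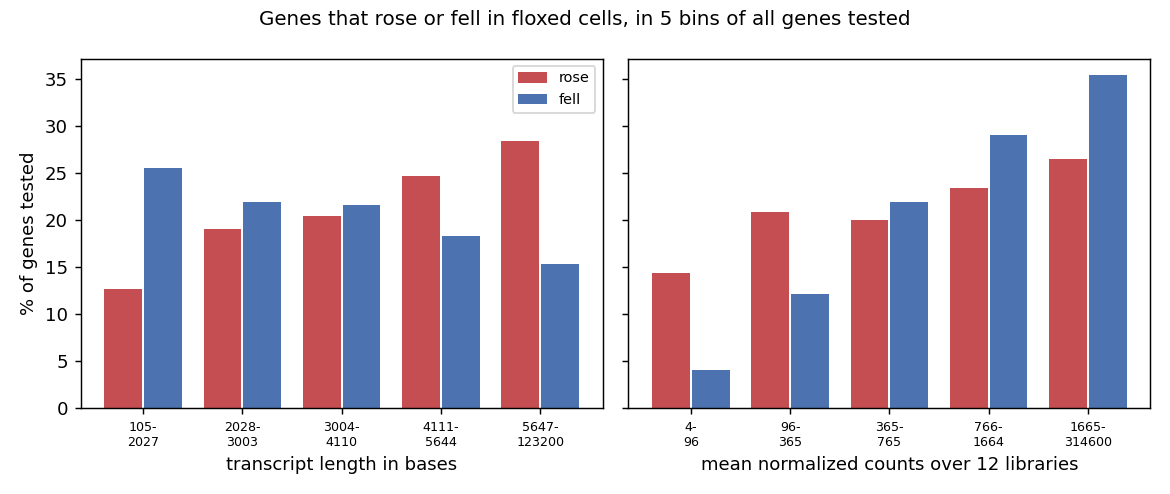
Percent of tested genes that rose (red) or fell (blue) with H2O2 in floxed cells, in 5 equal bins of transcript length (left, bases) and of mean normalised counts over 12 libraries (right). The share that rose climbs from 12.7% to 28.4% from the shortest to the longest bin, and the share that fell drops from 25.5% to 15.3%.

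Among protein-coding genes with a mean of at least 50 normalised counts and no overlap of the groups, those with the largest rises encode secreted and matrix proteins, signalling proteins and enzymes. Bmp3, a BMP family member that antagonises other BMPs (chromosome 5, 98854415 to 98884053), had 11.6, 15.6 and 6.45 normalised counts untreated and 101, 95.0 and 123 with H2O2, a rise of 9.41-fold from a low level. Plekha4, a phosphoinositide-binding adaptor, went from 72.6, 59.0 and 71.0 to 374, 439 and 421 (6.07-fold). Mest, an imprinted gene of the hydrolase family (chromosome 6, 30733506 to 30748466), had 174, 152 and 143 untreated and 759, 756 and 794 with H2O2, which is 4.91-fold. In each of these genes the groups were separated by more than the whole spread of either. Lipg, the endothelial lipase that cleaves phospholipids of HDL, went from 625, 583 and 552 to 2281, 2294 and 2231, with a log2 fold change of 1.95 ± 0.06 and the lowest p of any gene that rose by the rule (edgeR adjusted p = 3.6e-21). Cyp1b1, a cytochrome P450 induced by the aryl hydrocarbon receptor, went from 203, 191 and 144 to 668, 664 and 672 (3.72-fold). Also among the 15 largest rises were Sfrp2 (a secreted Wnt modulator, 5.28-fold), Fgf21 (4.93-fold), Aebp1 (4.29-fold), Col5a3 (3.92-fold), C1s1 (3.83-fold), Ptgds (prostaglandin D synthase, 3.82-fold), Kif12 (3.77-fold), Adamts16 (3.71-fold), Col8a1 (3.47-fold) and Rap1gap (a GTPase-activating protein for Rap1, 3.30-fold).

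Under the same conditions, the deepest fall was in a sulfotransferase. Sult1d1 (chromosome 5, 87554650 to 87569006) had 185, 251 and 279 normalised counts untreated and 5.07, 1.03 and 1.15 with H2O2, where its raw counts were 5, 1 and 1. Zbtb16, a zinc finger repressor induced by glucocorticoids (chromosome 9, 48651797 to 48836225), had 748, 729 and 691 untreated and 47.7, 41.3 and 57.3 with H2O2, a log2 fold change of -3.89 ± 0.11 (edgeR adjusted p = 6.2e-23). Hif3a, a hypoxia-inducible factor subunit that lacks the strong activation domain of the others, went from 1454, 1281 and 1373 to 123, 138 and 171 (log2 fold change -3.26). Treated and untreated libraries of these genes did not overlap. Crispld2, a secreted protein of the CRISP family, went from 515, 468 and 396 to 31.5, 44.4 and 22.9. Kdr, the VEGF receptor 2 and an endothelial marker, fell with a log2 fold change of -2.57, and Angptl7 with -2.42. Others among the 15 were Ccdc68 (-2.33), Zbtb8b (-2.27), Keg1 (-2.05), Sgk1 (-1.93), Hrct1 (-1.92), Krt20 (-1.87) and Tll1 (-1.86). The aldehyde dehydrogenases Aldh1a1 (-2.21) and Aldh1a7 (-2.02), also among them, are close paralogs and uncertain. Ntsr1, the neurotensin receptor, lies under that mean and was chosen after its values were seen. It had 67, 89 and 61 counts untreated and 0 in all treated libraries, which is at least 26.1-fold lower against a floor of 3 normalised counts per library.

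**Figure D2:**
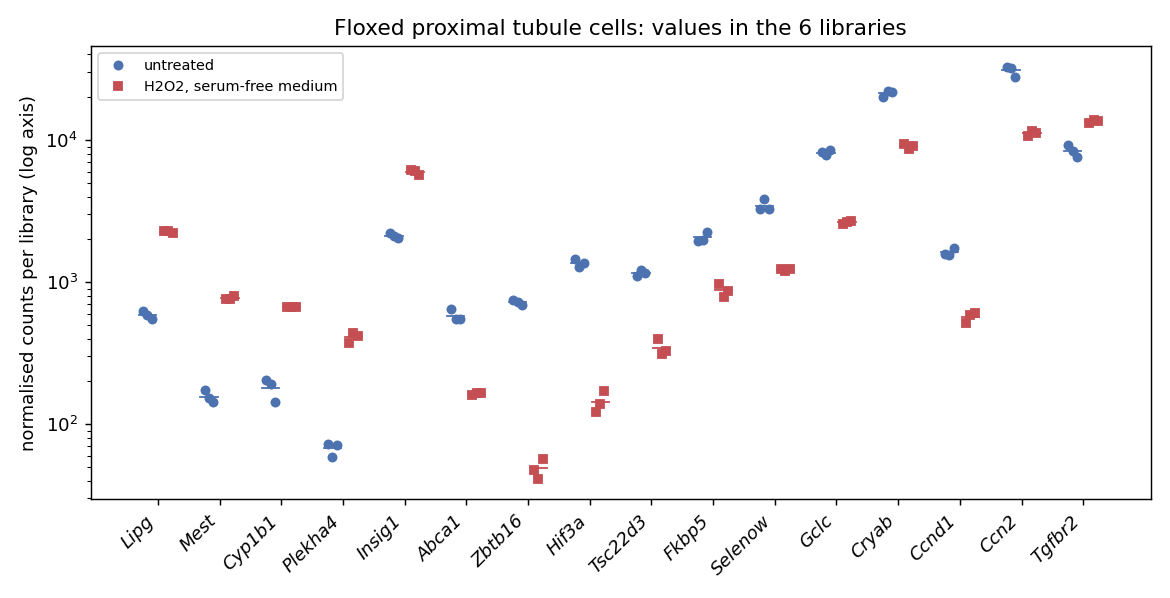
Normalised counts (log axis) of 16 genes in each of the 3 untreated (blue circles) and 3 treated (red squares) libraries of floxed cells, with the group mean as a line. The groups do not overlap in any of them, from Zbtb16 (41.3 to 57.3 treated against 691 to 748 untreated) to Lipg (2231 to 2294 against 552 to 625).

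Genes of cholesterol synthesis and uptake rose as a block. All 27 tested members of the list rose, 23 of them by at least 1.5-fold, and their median log2 fold change was 1.07 against 0.01 for all genes tested. Insig1, the sterol-responsive protein that retains SREBP in the endoplasmic reticulum (chromosome 5, 28071412 to 28078662), had 2216, 2118 and 2039 normalised counts untreated and 6194, 6015 and 5704 with H2O2, a log2 fold change of 1.49 ± 0.07 (edgeR adjusted p = 7.8e-18). Every treated library exceeded every untreated one by a wide margin. Enzymes along the whole route moved likewise, with log2 fold changes of 1.14 for Hmgcs1, 1.06 for Idi1, 1.16 for Fdft1, 1.18 for Sqle, 1.27 for Lss, 1.40 for Cyp51 and 1.39 for Nsdhl. Among the genes of this list, the promoter of Hmgcs1 printed above was the only one of 19 with the 9 letters of the sterol element, which were found in 0.565% of the 9739 promoters matched. The CCAAT box, bound by NF-Y, was in 16 of the 19 promoters and in 39% of all.

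Related lipid genes moved unevenly. Of 24 tested genes of fatty acid synthesis 17 rose and 2 fell, with Elovl6, an elongase, at 1.14, Acsl3 at 0.79, Scd1, the stearoyl-CoA desaturase, at 0.70, Fasn at 0.53 and Srebf1 at 0.24 on the log2 scale. Those that fell were Dgat2 (-0.80), which makes triglyceride, and Me1 (-0.50), a source of NADPH. Dgat2 did not pass without untreated replicate 1 (-0.81) or 2 (-0.66) or treated replicate 1 (-0.70) or 3 (-0.60), and Srebf1 did not pass without untreated replicate 3 (0.15) or treated replicate 2 (0.20). Abca1, which exports cholesterol and is a target of the liver X receptors, moved against the synthesis genes: its normalised counts were 646, 547 and 547 untreated and 161, 166 and 165 with H2O2 (log2 fold change -1.82 ± 0.09, edgeR adjusted p = 1.4e-16). It was the single member to fall among 8 tested genes of the liver X receptor list, of which Pltp (0.60), Lpcat3 (0.57) and Arl4c (0.42) rose. Of 31 tested genes of fatty acid oxidation 6 rose and 6 fell, near the 21.0% and 20.5% of all genes. Cpt1a, which admits long-chain fatty acids to mitochondria, rose 1.91-fold from 1098, 1163 and 1127 to 2279, 2200.2 and 1981, while Hadhb (-0.37), Ech1 (-0.26) and Acadl (-0.26) fell slightly, and 3 genes of the list fell without untreated replicate 2.

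**Figure D3:**
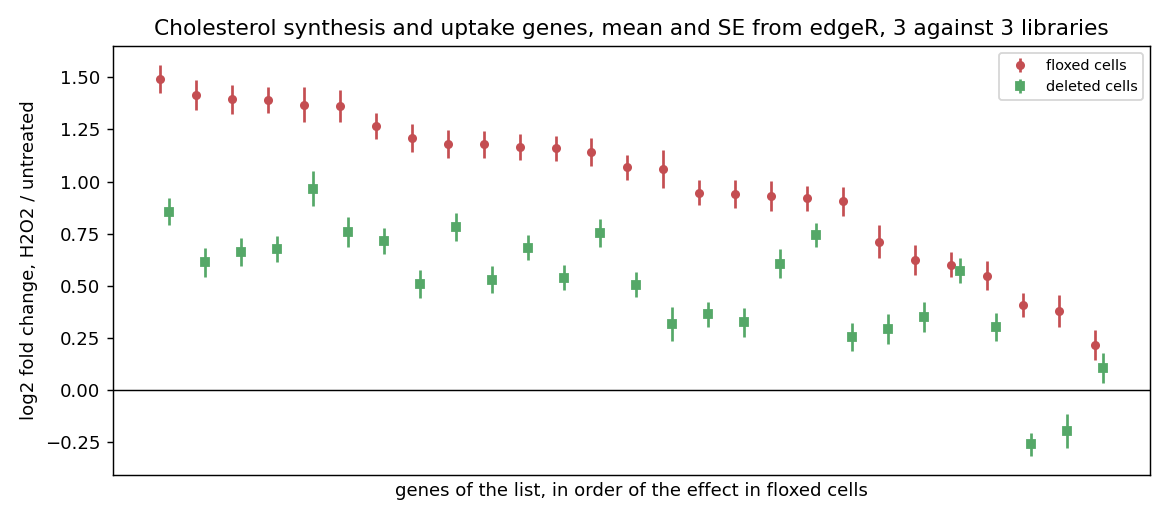
Log2 fold change with H2O2 (mean and SE from edgeR, 3 against 3 libraries) of the 27 tested genes of cholesterol synthesis and uptake in floxed cells (red circles) and deleted cells (green squares), in order of the effect in floxed cells. All 27 red points lie above 0, with a median of 1.07, and the median of the green points is 0.54.

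Glucocorticoid-responsive genes included several of the deepest falls. Of 26 tested members 13 fell and 7 rose, and 10 of the falls were at least 1.5-fold. Tsc22d3, which encodes the anti-inflammatory protein GILZ, had 1105, 1226 and 1161 normalised counts untreated and 397, 314 and 325 with H2O2, a log2 fold change of -1.75 ± 0.08 (edgeR adjusted p = 6.4e-18). Fkbp5, a co-chaperone that restrains the receptor, went from 1947, 1992 and 2256 to 968, 786 and 869.8. Sgk1, a kinase that controls sodium transport, went from 646, 679 and 712 to 179, 158 and 201. None of these groups overlapped. Zbtb16, described above, belongs to this list, and Per1 (-1.75), Dusp1 (-1.45) and Klf9 (-0.77) fell too. Sult1a1, a sulfotransferase, had 25, 29 and 38 counts untreated and 1 in each treated library, at least 11-fold lower. The members that rose were led by Hsd11b2 (log2 fold change 1.33), which inactivates cortisol and corticosterone, and included Cdkn1c (0.64) and the metallothioneins Mt2 (0.58) and Mt1 (0.56), which also respond to metals. Among 19 tested clock genes, in which Per1 is counted again, 5 rose and 8 fell. Per3 (1.67), Dbp (0.75) and Nr1d2 (0.71) rose, and Nfil3 (-1.0) and Bmal1 (-0.48) fell.

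The selenoproteins did not move together. Of 20 tested members 7 fell and 2 rose. Selenow, a small selenoprotein whose transcript is sensitive to selenium supply, had 3282, 3824 and 3256 normalised counts untreated and 1239.8, 1190.0 and 1233 with H2O2, a log2 fold change of -1.50 ± 0.06 (edgeR adjusted p = 4.1e-18). Gpx1, the cytosolic glutathione peroxidase that reduces H2O2, went from 3601, 4275 and 3812 to 2279, 2285 and 2236 (0.582-fold). Neither gene had overlapping groups. Selenoh (-0.73) and the secreted peroxidase Gpx3 (-0.71) also fell, Selenok (0.27) and Txnrd3 (0.31) rose, and Gpx4, which protects membranes from lipid peroxidation, was at -0.09 and did not pass the test. Txnrd3 did not pass without replicate 1 of either group (0.22 without the untreated one, 0.24 without the treated one).

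Genes known as targets of Nrf2 more often fell than rose, 16 against 9 of 30 tested, with a median log2 fold change of -0.26. Gclc, the catalytic subunit of the enzyme that makes glutathione (chromosome 9, 77754535 to 77794489), had 8191, 7783 and 8507 normalised counts untreated and 2569.8, 2668 and 2683 with H2O2, a fall to 0.324-fold and the only change of 1.5-fold or more in the list (log2 fold change -1.63 ± 0.06, edgeR adjusted p = 1.3e-19). Its partner Gclm (-0.49) fell less, as did Prdx6 (-0.57), the sulfiredoxin Srxn1 (-0.51), Txnrd1 (-0.37) and Hmox1 (-0.26), the haem oxygenase. Nqo1 had 45.2, 57.9 and 63.5 untreated and 90.3, 82.6 and 61.9 with H2O2, a rise of 1.42-fold in which the groups overlapped. This rise did not pass without untreated replicate 1 (log2 fold change 0.39) or treated replicate 1 (0.40) or 2 (0.47). Osgin1 (0.57), Abcc4 (0.46), Slc7a11 (0.37), the cystine transporter, and Gstm1 (0.36), which has close paralogs and is uncertain, also rose. The letters of the antioxidant response element were in 8 of 24 promoters of this list, Gclm among them, and in 14.8% of all promoters. Of these 8 genes, 2 rose and 5 fell.

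The list of antioxidant enzymes, in which Txnrd3 of the selenoproteins and Cat of the Nrf2 targets are counted again, gave 11 falls and 3 rises among 24 tested genes. Cat, which encodes catalase, had 1261, 1239 and 1403 normalised counts untreated and 1155, 929 and 1025 with H2O2, a fall to 0.796-fold. Glrx (-0.92), Txn1 (-0.56) and Txn2 (-0.43) fell, Txnip (0.45), the inhibitor of thioredoxin, and Sesn3 (0.38) rose, and Sod2 (-0.09) did not pass. Of 18 metal-response genes 8 rose and 5 fell. Ferroportin, the iron exporter encoded by Slc40a1, rose 1.83-fold, Heph 1.68-fold and the zinc exporter gene Slc30a1 by 0.68 on the log2 scale, whereas the ferritin light chain gene Ftl1 fell (-0.36), and 2 or 3 genes of the list fell without untreated replicate 2 or any 1 of the treated libraries.

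No heat shock gene rose, and 22 of 29 tested ones fell. The small heat shock proteins moved most. Cryab had 20094, 22184 and 21750.5 normalised counts untreated and 9380.5, 8592 and 9028 with H2O2, a log2 fold change of -1.25 ± 0.06 (edgeR adjusted p = 2.9e-16). Hspb1 went from 142, 142 and 156 to 40.6, 52.7 and 34.4 (0.292-fold), and Hspb8 had a log2 fold change of -1.0. Cytosolic chaperones fell less (Hsp90aa1 at -0.51, Hsph1 at -0.33), and the stress-inducible Hspa1b (-0.10), which has a near-identical copy, did not pass. The letters of the heat shock element were in 10 of 23 promoters of the list, 2 times in the Hspb1 stretch above, and in 5.47% of all promoters. The 10 genes with these letters had a median log2 fold change of -0.24 and the others one of -0.27.

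Of the stress programs of the endoplasmic reticulum and of ATF4, the first leaned upwards and the second downwards. Among 23 unfolded-protein genes 9 rose and 3 fell: Ern1 (0.44), Atf6 (0.43) and Sel1l (0.34) rose, Sec61b (-0.47), Herpud1 (-0.42) and Xbp1 (-0.29) fell, and Hspa5, the chaperone BiP, was at 0.17 and did not pass. Of 36 genes of the integrated stress response 19 fell and 7 rose. Asns, the asparagine synthetase, had 2815, 2874 and 3181 normalised counts untreated and 1825, 1652 and 1889.8 with H2O2 (0.605-fold), and Atf4 itself (-0.37), Mthfd2 (-0.63), Eif4ebp1 (-0.72) and Chac1 (-0.57) fell. Ddit3, which encodes CHOP, moved the other way, from 162, 185 and 200.0 to 329, 341 and 308 (1.79-fold). Fgf21, a secreted stress hormone, Stc2 (0.63) and Atf5 (0.56) rose with it. The ATF4/CEBP letters were in 8 of 27 promoters of this list, Asns among them, against 2.05% of all promoters, and of those 8 genes 2 rose and 4 fell.

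Genes of protein synthesis and degradation fell by small and even amounts. All 80 tested genes of the cytosolic ribosome fell, with a median log2 fold change of -0.34 and a range from -0.68 to -0.21. Rps2 had 6997, 7561 and 7174 normalised counts untreated and 4455, 4741 and 4601 with H2O2, and Rpl35 had the deepest fall (-0.68). Of 33 proteasome genes 32 fell, with a median of -0.33, among them Psma2 (-0.49) and Psmd2 (-0.44). Ribosome biogenesis followed, with 26 of 38 genes lower and 0 higher, including Nop16 (-0.55), Npm1 (-0.48), Fbl (-0.42) and Ncl (-0.38). These transcripts are short for the ribosome and the proteasome (median 1203 and 1883 bases), and the median of the shortest bin of all genes was -0.07. Many ribosomal protein genes have processed copies elsewhere in the genome, which makes single values uncertain.

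Mitotic genes fell more often than they rose, while genes of G1 growth and of DNA replication had no common direction. Of 16 growth genes 3 rose and 7 fell, and their median was -0.03 on the log2 scale. Ccnd1, the cyclin of the G1 phase that mitogens induce, had 1585, 1547 and 1735 normalised counts untreated and 517, 587 and 609 with H2O2, a log2 fold change of -1.51 ± 0.07 (edgeR adjusted p = 2.8e-17). Ccnd2 (-0.72), Odc1 (-0.66), a Myc target, and Myc (-0.40) fell, and the Myc antagonists Mxd1 (0.41) and Mxd4 (0.29) rose. Of 47 mitotic genes 29 fell, by at most 0.40 on the log2 scale, and 0 rose. Without treated replicate 2 there were 19 falls, and 1 or 2 genes of the list rose without replicate 1 of either group. Cdk1 went from 1501, 1670.3 and 1713 to 1387, 1190.0 and 1313, Plk1 was at -0.34, Birc5 at -0.40 and Bub1b at -0.40, while Mki67 (0.12) did not pass. The CHR letters, the element through which the DREAM complex represses such genes, were in 28 of 39 mitotic promoters, 2 times in the Cdk1 stretch above, and in 11.5% of all. Mitotic genes with them had a median log2 fold change of -0.17 and those without one of -0.22. Of 45 replication genes 8 rose and 6 fell: Rrm2 (-0.48) and Rrm1 (-0.34), the ribonucleotide reductase subunits, fell, and Pole (0.30), Cdc6 (0.25) and Rfc3 (0.25) rose. Among 30 targets of p53, 7 rose and 5 fell, near the 21.0% and 20.5% of all genes, with a median of -0.03. Without untreated replicate 1, 8 of them fell. Trp53inp1 was at 0.52, Ddb2 at 0.51, Fas at 0.45 and Ccng1 at -0.26, whereas Cdkn1a (p21, -0.13) and Mdm2 (0.11) did not pass. Of 17 inhibitors of proliferation 11 did not pass, Gas1 (0.75), Cdkn1c (0.64), Klf4 (0.57), Cdkn2b (0.45) and Btg1 (0.34) rose, and Cdkn2d (-0.37) fell, with a median of 0.04.

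Glycolytic and hypoxia-induced genes were mostly lower, with 20 of 36 tested members down and 5 up. Ldha, which makes lactate, had 5217, 5493 and 5996 normalised counts untreated and 3294, 2779.7 and 2965 with H2O2 (0.541-fold). Eno1 (-0.78), Gapdh (-0.69), Aldoa (-0.69), Hk2 (-0.50) and the glucose transporter gene Slc2a1 (-0.43) fell, and Aldoc (0.79) and Ndrg1 (0.47) rose. Of 26 genes of the TCA cycle and pyruvate dehydrogenase 17 fell and 2 rose, with Dlat at -0.57 and Pdha1 at -0.39. There were 11 falls without treated replicate 2, and 0 or 1 rises without untreated replicate 2 or 3 or treated replicate 1 or 2.

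No nuclear-encoded gene of the respiratory chain lists rose, whereas the mtDNA-encoded genes that could be tested did. Of 37 nuclear-encoded genes of complex I 8 fell, close to the 20.5% of all genes, led by Ndufb8 (-0.62), and of 42 genes of complexes II to V 24 fell, with 0 rises in either. These counts depended on single libraries: between 2 and 5 complex I genes fell without untreated replicate 2 or 3 or treated replicate 2, and 12 or 13 genes of the other complexes fell without any 1 of these or treated replicate 3. All 7 mtDNA-encoded genes that could be tested rose, by 0.25 to 0.50 on the log2 scale. mt-Nd1 had 149392, 164309 and 147036 normalised counts untreated and 180591, 185973 and 225036 with H2O2, a log2 fold change of 0.36 ± 0.09 (edgeR adjusted p = 0.00221), and mt-Co1 (0.25) was the least changed. mt-Co1 did not pass without untreated replicate 3 (0.22) or treated replicate 2 (0.28) or 3 (0.19). The other 6 of 13 mtDNA-encoded genes had at most 6 counts in any floxed library and were not tested, whereas mt-Co1 had at least 240264. Whether so few counts reflect the cells or the counting of reads was not tested. The shares below therefore rest almost wholly on the 7 tested genes and are not those of all mtDNA transcripts. Together mtDNA-encoded genes took 4.59%, 5.15% and 4.65% of the counts in the untreated libraries and 5.52%, 5.77% and 6.70% with H2O2. The means were 4.80 ± 0.31% and 6.0 ± 0.63% (SD, n = 3 and 3), and the groups did not overlap (two-sided exact permutation p = 0.10, the smallest that 3 against 3 libraries can give). Adding up all transcripts of a gene gave 3.20 to 3.32 times as many counts per floxed library. On that larger base the shares were lower, at 1.39%, 1.57% and 1.40% untreated and 1.70%, 1.78% and 2.10% with H2O2. The difference was then 0.408 percentage points in place of 1.20, and the groups again did not overlap. Of the regulators of mitochondrial number, Ppargc1b rose (0.92), while Ppargc1a (-0.34) did not pass. Pink1 (0.38) rose and Bnip3 (-0.73), a mitophagy receptor that hypoxia induces, fell.

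Genes of autophagy and the lysosome rose more often than they fell. Of 50 tested genes of autophagy and the lysosome 26 rose and 5 fell, with 8 rises of at least 1.5-fold. Hexa, the alpha chain of hexosaminidase, had 2030.4, 2218 and 1809 normalised counts untreated and 3305, 3646 and 3400.3 with H2O2 (1.71-fold, edgeR adjusted p = 4.4e-11). The protease genes Ctsa (0.65), Tpp1 (0.64) and Ctsd (0.53), the calcium channel gene Mcoln1 (0.62) and the membrane protein gene Lamp1 (0.35) rose. Wipi1 (-0.53), which acts in autophagosome formation, had the deepest fall. The number that fell was 3 without treated replicate 2 and 2 without treated replicate 3. The letters of the E-box, the core of the site for TFEB, were in 13 of 40 promoters of the list and 2 times in the Mcoln1 stretch above, against 10.2% of all. Of these 13 genes 7 rose and 2 fell.

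**Figure D4:**
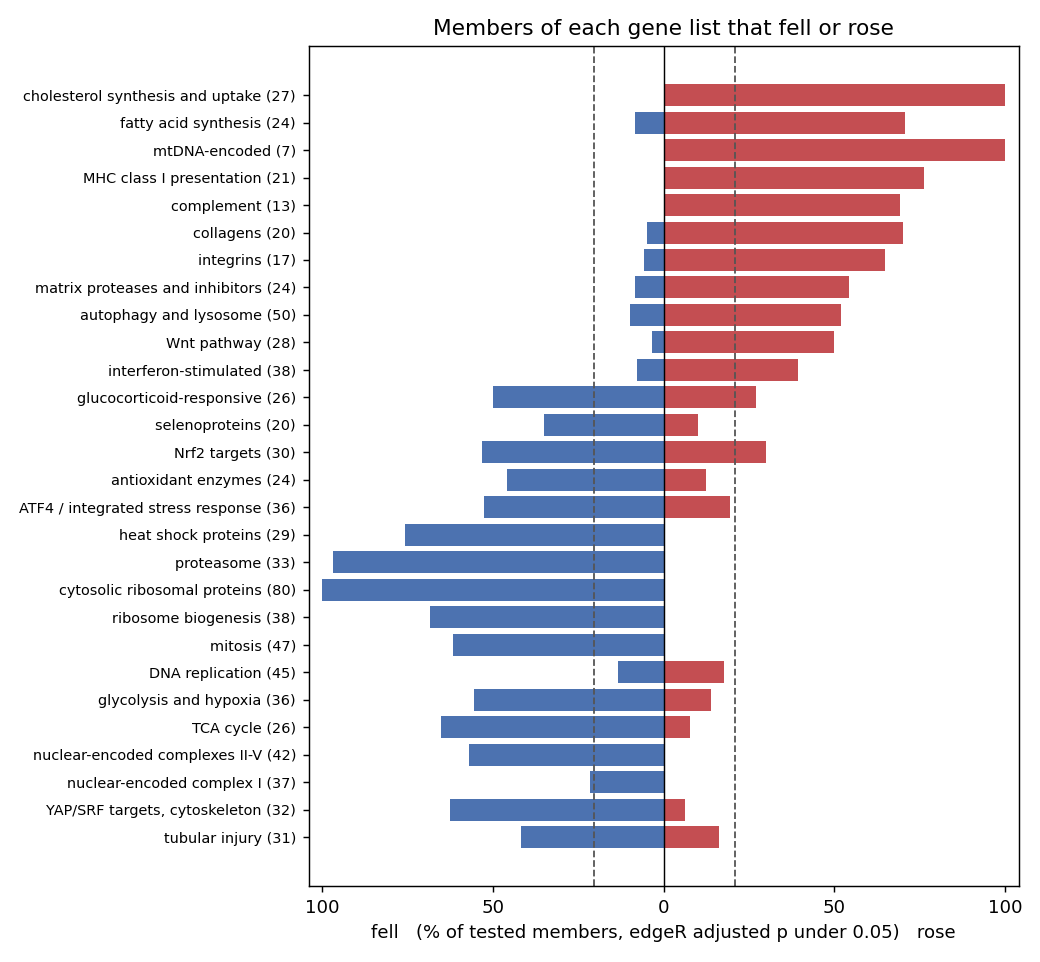
Percent of tested members of 28 gene lists that rose (red, right) or fell (blue, left) at an edgeR adjusted p under 0.05, with the number tested in brackets and the share among all genes as dashed lines (21.0% rose, 20.5% fell). All 27 cholesterol genes rose and all 80 cytosolic ribosome genes fell, and the 45 DNA replication genes lie within the background on both sides.

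Genes of MHC class I presentation and complement were mostly higher. Of 21 tested genes of MHC class I presentation 16 rose and 0 fell. B2m, the light chain of all class I molecules, had 56901, 62748 and 50360.0 normalised counts untreated and 67753, 66358 and 76452 with H2O2 (1.24-fold). Tapbp (0.78), Erap1 (0.66) and Tap1 (0.38), which load peptides, rose as did H2-K1 (0.49) and H2-D1 (0.45), which share sequence and are uncertain. Of 13 complement genes 9 rose, all by at least 1.5-fold, and 0 fell. C1s1 went from 26.3, 41.2 and 20.4 to 113, 111 and 113, Cfb from 13.7, 17.8 and 19.4 to 52.8, 40.3 and 52.7, and Clu (clusterin) rose 1.70-fold, while C3 was at -0.24 and did not pass. Among 38 interferon-stimulated genes 15 rose and 3 fell, from Rsad2 (1.55) and Parp14 (0.62) to Ifit3 (-0.43) and its close copy Ifit3b (-0.51), with Isg15 (-0.25) not past the test. Sting1 rose (0.58) and Cgas (0.08) did not pass. Of 30 cytokine and chemokine genes 9 rose and 7 fell. Cx3cl1 (fractalkine) rose 2.77-fold from 345, 354 and 287 to 845, 929 and 957, and Ccl2 (0.96) and Icam1 (0.85) rose, but Cxcl1 fell from 353, 330.5 and 293 to 141, 155 and 157. Nfkbia, an inhibitor that NF-κB induces, fell (-0.35).

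Collagen and integrin genes were mostly higher, and genes of the TGF-β pathway and matrix glycoproteins had no common direction. Of 20 collagen genes 14 rose and 1 fell, among them Col5a3 from 109, 96.8 and 95.7 to 375, 437 and 374, Col8a1 (1.80), Col12a1 (1.03) and Col5a1 (0.80) as well as the basement membrane chain Col4a1 (0.33). Col4a3 (-0.32, or -0.20 without untreated replicate 1) fell and Col1a1 (0.43) did not pass. Collagen transcripts are long (median 6655 bases), and the longest bin of all genes had a median log2 fold change of 0.06. Of 17 integrins 11 rose and 1 fell, with Itga9 at 1.48 and Itgb8 at 1.40. Ccn2, a direct target of both TGF-β and YAP (chromosome 10, 24595442 to 24598683), had 32883, 32157 and 27615 normalised counts untreated and 10710.5, 11500.0 and 11189.9 with H2O2, a log2 fold change of -1.47 ± 0.07 (edgeR adjusted p = 3.4e-17). Of 37 matrix glycoprotein genes 10 rose and 7 fell, with a median of 0.15, and Lox (-1.33), which cross-links collagen, and Postn (-1.15) were among the falls. Ltbp1, which anchors latent TGF-β, went from 2004, 1763 and 1505 to 616, 652 and 584. Of 29 genes of the TGF-β pathway, Ccn2 and Ltbp1 among them, 9 fell and 7 rose. Ligands were split, with Tgfb1 up 1.69-fold and Tgfb2 down to 0.408-fold, and the receptor genes Tgfbr3 (0.64) and Tgfbr1 (0.29) rose with Tgfbr2.

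Genes of the actin cytoskeleton and of tubular injury were more often lower. Of 32 genes induced by YAP or SRF or encoding cytoskeletal proteins 20 fell and 2 rose. Acta2, smooth muscle actin, went from 456, 457 and 495 to 179.6, 174 and 183, and Tagln2 (-0.87), Actn1 (-0.86), Ankrd1 (-0.42) and Ccn1 (-0.30) fell, while Vcl (0.26) and Axl (0.29) rose. Of 31 injury genes 13 fell and 5 rose. Havcr1, which encodes the injury marker KIM-1, had 134, 203 and 147 normalised counts untreated and 72, 74.4 and 79.1 with H2O2 (0.467-fold), with no overlap. Krt20, Anxa1 (-1.32), Anxa2 (-0.90), S100a6 (-0.92) and Sox9 (-0.54) fell, but Hbegf (1.01), Ccl2, Clu and Lcn2 (0.96), which encodes NGAL, rose. Lcn2 did not pass without untreated replicate 1 (0.77) or 3 (0.78) or treated replicate 2 (0.94) or 3 (0.92), and was at 1.47 without untreated replicate 2. Of 12 transcription factors and other genes of the mesenchymal list 7 fell and 2 rose, with S100a4 at -1.0, Vim at -0.56 and Cdh11 at 0.41, and 4 fell without untreated replicate 3. There was 1 rise without untreated replicate 1 or 2 or treated replicate 1.

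Genes that characterise the proximal tubule gave no common direction. Of 51 such genes measured only 23 had enough counts, of which 4 rose and 7 fell. Aqp1, the water channel, had 7389, 7703 and 6217 normalised counts untreated and 14654, 14783 and 14396 with H2O2, a rise of 2.06-fold (edgeR adjusted p = 5.7e-14), and Cyp4b1 (1.32) and Alpl (1.73) rose from low levels. Slc4a4, the basolateral bicarbonate transporter, went from 1624, 1364 and 1474 to 525, 537 and 637, and Ggt1 from 90.5, 76.8 and 60.2 to 18.3, 26.9 and 18.3. Cubn (-0.36), which encodes the endocytic receptor cubilin, did not pass.

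Growth factor and developmental genes more often rose than fell, though single members moved both ways. Of 12 EGF ligand and receptor genes 7 rose and 2 fell. Hbegf rose while Ereg, another EGF ligand, fell from 26.3, 14.5 and 20.4 to 7.10, 5.16 and 9.17 (log2 fold change -1.52, and -1.28 without untreated replicate 1 or -1.33 without treated replicate 2, where it did not pass). Igf1 went from 7.36, 13.4 and 2.15 to 55.8, 32.0 and 48.1. Of 20 Fgf, Pdgf and Vegf ligand and receptor genes 12 rose and 3 fell, with Fgf1 (-1.22) and Fgf7 (-1.14) among the falls. Of 28 Wnt pathway genes 14 rose and 1 fell, with Sfrp2 and the receptor gene Fzd7 (0.91) higher. Of 16 Notch pathway genes 7 rose and 2 fell, among them the receptor genes Notch3 (0.69), Notch1 (0.56) and Notch2 (0.46). Of 42 clustered protocadherin genes 36 rose, and 14 rose without untreated replicate 3. Isoforms of the alpha and gamma clusters share their last exons, so those are not separate measurements. The 4 members with the lowest p were Pcdhb16, Pcdhb17, Pcdhb18 and Pcdhb22 of the beta cluster. They kept their call in every alternative in which they could be tested. Of 25 genes controlled by FoxO factors or insulin 10 rose and 4 fell, with Pik3ip1 (1.14), Irs2 (0.47) and Txnip higher and Bnip3, Arrdc3 (-0.57) and Cited2 (-0.42) lower.

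The deleted line gave a second comparison of the same treatment in other libraries. Across 12971 genes the log2 fold changes of the lines had a Pearson r of 0.573 and a Spearman rho of 0.605, as a description across genes that are not independent. Of the 5392 genes changed in floxed cells, 4707 (87.3%) had the same sign in deleted cells. The difference between the effects passed the interaction test for 1321 genes (10.2%). Among these, 584 had risen in floxed cells, 551 of them by more than in deleted cells, and 336 had fallen, 262 of them by more. Selection by a change in floxed cells favours larger effects there, so this split cannot tell which line responded more.

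In the cholesterol, mitotic, collagen and mtDNA-encoded lists, the share of genes that passed the interaction test was above the 10.2% of all genes tested. Such shares were not particular to these lists. Of the integrins 7 of 17 passed, of the tubular injury genes 11 of 31, of fatty acid synthesis 8 of 24 and of the Nrf2 targets 8 of 30. In the cholesterol list 22 of 27 genes passed the interaction test, each with the larger effect in floxed cells, and the median log2 fold change was 1.07 in floxed and 0.54 in deleted cells. Insig1 rose by 1.49 in floxed and 0.85 in deleted cells, a difference of 0.64 ± 0.09 (edgeR interaction adjusted p = 1.5e-05). In the mitotic list 35 of 47 genes passed, all with the lower log2 fold change in deleted cells, where 46 fell and the median was -0.53 against -0.19 in floxed cells. Birc5, which encodes survivin, was at -0.40 in floxed and -0.74 in deleted cells, a difference that did not pass with all transcripts of a gene added up. In the collagen list 10 of 20 passed, all higher in floxed cells. Col5a3, which rose in floxed cells, was at -0.24 in deleted cells. Of the mtDNA-encoded genes 5 of 7 passed, with median effects of 0.36 and -0.12. By contrast, 0 of the 80 ribosomal, 33 proteasome and 13 complement genes passed, and their medians were -0.26, -0.28 and 0.99 in deleted cells.

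Single genes with the lowest interaction p were Lipg, Mest, Cyp1b1, Zbtb16 and Gldc. Lipg rose by 1.95 in floxed and 0.66 in deleted cells on the log2 scale, and Mest by 2.30 and 0.66. Cyp1b1 rose by 1.89 and 0.40. Zbtb16 was at -3.89 and -2.08. Gldc, which cleaves glycine, moved more in deleted cells, with log2 fold changes of -0.32 and -1.33. For Ltbp1 the effect was -1.51 in floxed cells and -0.04 in deleted cells, a difference of -1.47 ± 0.14. Among glucocorticoid-responsive genes, Tsc22d3 (-1.75 and -1.68) and Fkbp5 (-1.24 and -1.15) did not pass the interaction test, whereas Sgk1 fell more in deleted cells (-1.93 and -3.03). Gclc (-1.63 and -1.47) and Ccn2 (-1.47 and -1.35) did not pass it either.

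**Figure D5:**
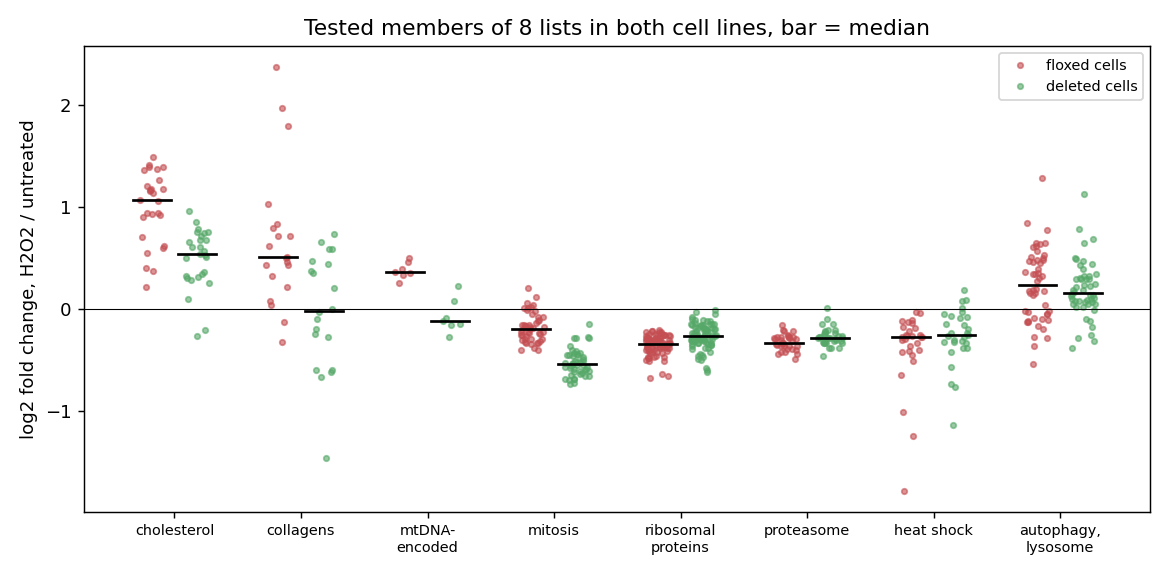
Log2 fold change with H2O2 of the tested members of 8 gene lists in floxed (red) and deleted (green) cells, 1 point per gene, with the median as a bar. The medians lie apart for the cholesterol list (1.07 and 0.54), the mitotic list (-0.19 and -0.53) and the mtDNA-encoded genes (0.36 and -0.12), and closer for the ribosomal proteins (-0.34 and -0.26).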

How the data were processed

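RNA from 12 samples of mouse proximal tubule cells was sequenced, 3 libraries in each of 4 groups of genotype and medium, and the 6 floxed libraries are compared here. Per the labels and the study's methods, the authors trimmed reads with fastp, aligned them with STAR to GRCm38.p6 and counted them with featureCounts. Versions of these tools are not given in the sources used here beyond the R and Bioconductor releases in the methods. The methods name a stranded library kit, and whether the counting used strand is not given. The deposited values are raw counts per transcript, not normalised, for 106332 transcripts, whereas counts per gene had been assumed when the tests were set down. Floxed libraries held 51387170 to 58527817 such counts, more than the reads per library that the methods give. A read could thus count for several transcripts, and sums over transcripts can hold the same read more than once. The RNA kit differs between the labels and the methods.

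Transcripts were named through GENCODE M39. Names were found for 104820, and the 1512 without one were left out. Each of 25514 genes was represented by its transcript with the highest total count, of which 17419 had several to choose from, so a shift between isoforms can appear as a change in a gene. Groups came from the labels. All 12 libraries were fitted with 4 group means in edgeR 4.0.16 (quasi-likelihood test, TMM, filterByExpr with its minimum of 10 counts, R 4.3.3, limma 3.58.1), and p-values were adjusted over 12971 genes by the Benjamini-Hochberg method. A gene was called at an adjusted p under 0.05. The interaction is the effect in floxed minus that in deleted cells. Normalised counts are scaled to 17351835 counts per library, and folds against groups at 0 use a floor of 3 counts, which covers counting error only. DESeq2 1.42.0, other normalisation, filters, sets of libraries, a block on replicate number, summed transcripts and the omission of each library were alternatives.

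Tested on simulated data for the floxed comparison, edgeR recovered 196 of 200 genes changed 2-fold among 12344, and 11 unchanged genes were called. Recovery of smaller changes was not tested, and the median size among the called genes of the floxed comparison was 0.34 on the log2 scale. The number of false calls with as many as 5392 genes changed was not tested either.

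The 67 gene lists and families and their members were chosen with earlier results of these data known. Genes were named from the 15 largest changes in each direction with at least 50 mean normalised counts and no overlap, the 5 lowest p, Tgfbr2, the main members of each list with its 4 lowest p in each direction, and the 5 lowest interaction p. Not all genes of this rule are printed, and several whose call depended on 1 library or setting were left out after that was seen. Idi1, Fdft1 and Ntsr1 fall outside the rule and were chosen after their values were seen. Promoters of 9739 tested genes were matched in the RefSeq table of GRCm38.p6. Some genes of these lists are not reported here.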

Additional observations from a re-analysis of the deposited data

Results flagged for a closer look

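These results were taken up because the effect of H2O2 in serum-free medium differed between floxed and deleted cells in a test of the difference itself, the edgeR interaction term, which 1321 genes passed. For the genes with values by library in the report, the difference is given as the log2 effect in floxed minus that in deleted cells.

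Among genes that rose in floxed cells, the difference was 1.29 for Lipg, 1.63 for Mest, 1.5 for Cyp1b1, 1.4 for Plekha4, 2.21 for Col5a3, 0.863 for Cx3cl1, 0.825 for Aqp1 and 0.572 for Tgfbr2. The Tgfbr2 value compares a gene whose floxed part is deleted in 1 of the lines. Insig1, of the cholesterol list, had a difference of 0.637.

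Among genes that fell in floxed cells, the fall was deeper there for Sult1d1 (-3.36), Zbtb16 (-1.81), Ltbp1 (-1.47), Hif3a (-0.841), Abca1 (-0.646), Ccnd1 (-0.588), Cxcl1 (-0.542) and Cryab (-0.509). It was deeper in deleted cells for Sgk1 (1.1), Gldc (1.02) and Acta2 (0.582). All genes named so far passed the interaction test under every alternative in which they could be tested.

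The other 6 did not pass it under every alternative. Selenow (-0.355) did not pass without untreated replicate 2 or with summed transcripts. Cat (-0.339) did not pass without untreated replicate 3, treated replicate 2 or 3, or with summed transcripts, and ranged from -0.40 to -0.24. Hspb1 (-0.644) was lost in 6 of 13 alternatives and ranged from -0.81 to -0.49. Igf1 (4.63), a gene with low counts, was lost in 4 of 11 and ranged from 2.14 to 5.3. Bmp3 (1.44) was lost in 5 of 12, among them the block on replicate number, and Cdk1 (0.277) in 5 of 13.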

How the results depend on the processing

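The count of genes changed in floxed cells stayed within 1.5 times of 5392 in 15 alternatives, and the same held for the 1321 genes of the interaction in 13. With the limits of an unadjusted p of 0.01 and a change of 1.5-fold, 981 genes changed, of which 665 rose and 316 fell. DESeq2 called 5038 genes, 4974 of them shared with edgeR. Leaving out 1 library gave 4263 (without treated replicate 2) to 5580 genes (without untreated replicate 1) and 1020 to 1680 for the interaction. Summed transcripts gave 5066 and 962. The difference in mtDNA share, 1.20 percentage points, ranged from 0.848 to 1.44 with 1 library left out, where the exact permutation test cannot go below p = 0.20. It was 0.408 with summed transcripts, where the shares of both groups were lower as well.

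The replicate numbers were taken as names only. Same-numbered libraries had correlations of deviations of -0.09, 0.005 and 0.057, and differently numbered ones had values from -0.116 to 0.114. So few libraries cannot show whether same-numbered ones were handled together. With the number as a block 5235 genes changed and 1202 passed the interaction test. With only the 6 floxed libraries 4862 genes changed, and 4677 with the block as well, an alternative chosen after seeing the data.

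The genes in the report are not a fair sample for stability, because members that lost their call or changed sign under an alternative were in part left out of the text after this was seen. Over all 439 called genes that the naming rule gives, 384 kept their call in every alternative in which they could be tested (359 of them in all 15, the other 25 in 12 to 14), 55 lost it in at least 1 and 0 reversed. Of those 55, 47 are not in the report. The other 8 are Col4a3 (with DESeq2), Dgat2, Ereg, Lcn2, Nqo1, Srebf1, Txnrd3 and mt-Co1, and the cause was not tested. Of 67 genes of the rule that were not called, 22 changed sign in at least 1 alternative.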
